A study of Homo sapiens with 9 samples.

Results

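Genes of mucosal defence, 10 in all, were followed in HCT116 cells, a human colorectal cancer line. They were taken from the table by gene name. The list holds the secreted defence proteins LCN2, SLPI, PI3, WFDC2 and DEFB1, the acute-phase proteins SAA1 and SAA2, and the enzymes NOS2, DUOX2 and DUOXA2 that make or help to make reactive nitrogen and oxygen. Of the 10 genes, 9 were read from the 33861 genes of the deposited table, and DEFB1 is not analysed here. The filter on low counts kept 6 of them (LCN2, SLPI, WFDC2, NOS2, DUOX2 and DUOXA2) among 20988 genes that were tested. SLPI and LCN2 were the 2 members whose RNA rose beyond the thresholds given below, in each of the 3 comparisons of treatments. WFDC2, NOS2, DUOX2 and DUOXA2 did not pass in any of the 3. The 7 analysed members other than SLPI and LCN2 stayed below 1 FPKM in every library.

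The 9 libraries fell into 3 groups of 3. Control cells carry the label NC, which the labels do not spell out, and how long these cells were cultured is not stated. Activin-treated cells received 100 ng/mL activin A, a ligand of the TGF-beta family, for 5 days. Activin + HGF-treated cells received activin in that way and then 20 ng/mL hepatocyte growth factor, the ligand of the MET receptor, for another 5 days. The step from activin to activin + HGF therefore combines added HGF with a longer time after the start of treatment, and these cannot be told apart. All groups are the same cell line in serum-containing medium, and nothing in the sources says that the libraries of a group came from separate cultures. If they did not, the p-values measure technical spread alone.

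Epithelia of the gut and airway secrete small proteins that bind iron, inhibit proteases or damage microbial membranes, and they release hydrogen peroxide at their surface. Lipocalin-2 (LCN2) withholds iron by binding bacterial siderophores. SLPI, elafin (PI3) and WFDC2 are secreted proteins with whey acidic protein (WAP) domains, and SLPI and elafin block neutrophil elastase. DUOX2 is the peroxide-producing oxidase of the mucosa and needs its maturation factor DUOXA2, while NOS2 is the inducible nitric oxide synthase. Many of these genes are known targets of NF-kappaB and C/EBP factors downstream of interleukin-17, interleukin-1 and Toll-like receptors.

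Part of the RefSeq promoter of LCN2 is shown because LCN2 was 1 of the 2 members called higher. This DNA holds matches to known classes of control elements. A second, shorter stretch is shown from the DNA shared by the divergent pair DUOX2 and DUOXA2. Both are RefSeq promoter sequences on GRCh38.p14, plus strand, written 5′ to 3′ with motif matches in capitals. The LCN2 stretch, chr9:128149265-128149440, ends just upstream of the RefSeq start of LCN2, and the second stretch is chr15:45114213-45114242. In the deposited table LCN2 starts further upstream, at 128149071, so the LCN2 stretch lies within the gene as placed there. It was chosen as a stretch that no exon of LCN2 in the GENCODE annotation covers. The second stretch is covered by a GENCODE exon of DUOX2.
LCN2 promoter: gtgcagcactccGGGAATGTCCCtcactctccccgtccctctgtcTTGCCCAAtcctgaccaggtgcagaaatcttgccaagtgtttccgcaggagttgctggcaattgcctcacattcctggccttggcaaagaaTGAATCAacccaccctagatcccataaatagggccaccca
C/EBP match before DUOXA2: ggggcccttatTTGCACAAcctcttccagc

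Short motifs, 7 in all, were searched on both strands of 300-base promoters, from 250 bases before to 50 bases after the start, and 4 of the 10 members (LCN2, DUOX2, DUOXA2 and WFDC2) matched an entry of the promoter table. Positions are counted from the RefSeq start, with negative numbers upstream. In the LCN2 promoter, the NF-kappaB motif matched from -176 to -167 and, on the other strand and overlapping by all but 1 base, from -175 to -166. The C/EBP letters TTGCNNAA matched from -143 to -136, and the AP-1 letters TGANTCA matched from -52 to -46. Of all 35093 promoters, 22.6% held the NF-kappaB motif, 10.5% the C/EBP letters and 7.71% the AP-1 letters. The C/EBP letters between the oxidase genes lay at -102 to -95 of DUOXA2 and at -59 to -52 of DUOX2. The SMAD letters CAGACA, present in 16.9% of all promoters, matched at 36 to 41 of DUOXA2, outside the printed stretch. The WFDC2 promoter matched none of the 7 motifs, which also included TTCNNNGAA (STAT, 7.66% of promoters), the interferon response element (3.58%) and TAAACA (forkhead, 12.3%). A match describes letters and shows no binding.

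Libraries held 57453977 to 77016167 counts. A count of 3, taken as the floor of detection for counting error only, was at most 0.0551 CPM (counts scaled to a common library size) in any of them. Colorectal epithelial markers summed to 556 to 875 FPKM per library, and 6 of 10 reached 0.5 FPKM in at least 1 library, while CDX1, VIL1, CDH17 and LGALS4 stayed below it in all 9. FPKM, fragments scaled to gene length and to mapped reads, is the authors' per-length unit and is used here for levels. All 7 leukocyte markers analysed were below 0.5 FPKM in all 9 libraries, and their sums ranged from 0.3 to 0.48 FPKM (control), 0.18 to 0.62 (activin) and 0.27 to 0.68 (activin + HGF). PTPRC, which defines leukocytes, had 0 counts in the 3 control libraries and at most 11 counts in an activin library and 4 in an activin + HGF library. Of 8 markers of stroma and vessels, 7 were below 0.5 FPKM throughout and COL1A1 was the exception, with sums of the 8 at 2.69 to 2.75, 4.72 to 6.11 and 2.93 to 3.71 FPKM in the same order of groups. COL1A1 was called higher with activin (log2 fold change 1.03, edgeR adjusted p = 0.00205). COL3A1, with 59, 144 and 212 counts in control, 3, 0 and 0 in activin and 14, 21 and 27 in activin + HGF libraries, was called lower with activin (edgeR adjusted p = 0.00111) and higher at the HGF step (0.0163). PDGFRB had means of 0.285, 2.2 and 0.937 CPM and was not called (edgeR adjusted p = 0.0508 with activin). Among the epithelial markers, EPCAM was called higher at the HGF step (log2 fold change 1.02, edgeR adjusted p = 0.0067), a call lost in 4 of 10 other fits. The part of these markers in the results on SLPI and LCN2 was not tested.

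SLPI, which inhibits neutrophil elastase and cathepsin G, was the most abundant member in every group. It lies at chr20:45252239-45254564 on the minus strand. Its level was 1.58, 1.45 and 1.61 FPKM in the control libraries. It was 13.06, 22.57 and 20.16 FPKM in the activin libraries. It was 45.65, 42.63 and 42.8 FPKM in the activin + HGF libraries. The groups did not overlap, and control libraries lay close together while the lowest activin library, replicate 1, lay below the other two. In group means, SLPI went from 1.55 ± 0.085 to 18.6 ± 4.94 and then to 43.7 ± 1.7 FPKM (SD, n = 3). Its mean exceeded that of 49.2% of the genes tested in control cells, 91.6% with activin and 96.4% with HGF as well. In this bulk RNA, a change in the number of cells that express a gene and a change in RNA per cell cannot be told apart.

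LCN2 lies at chr9:128149071-128153453 on the plus strand. It was at 0.61, 0.68 and 0.29 FPKM in the control libraries. It was at 4.93, 5.91 and 5.56 FPKM in the activin libraries. It was at 15.88, 15.18 and 10.32 FPKM in the activin + HGF libraries. Again no groups overlapped, and the lowest library of control and of activin + HGF-treated cells was replicate 3 of each. Group means were 0.527 ± 0.208, 5.47 ± 0.497 and 13.8 ± 3.03 FPKM (SD, n = 3), and 34.1%, 72% and 88.7% of the genes tested had a lower mean. The order of SLPI above LCN2 held in all 9 libraries.

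**Figure D1:**
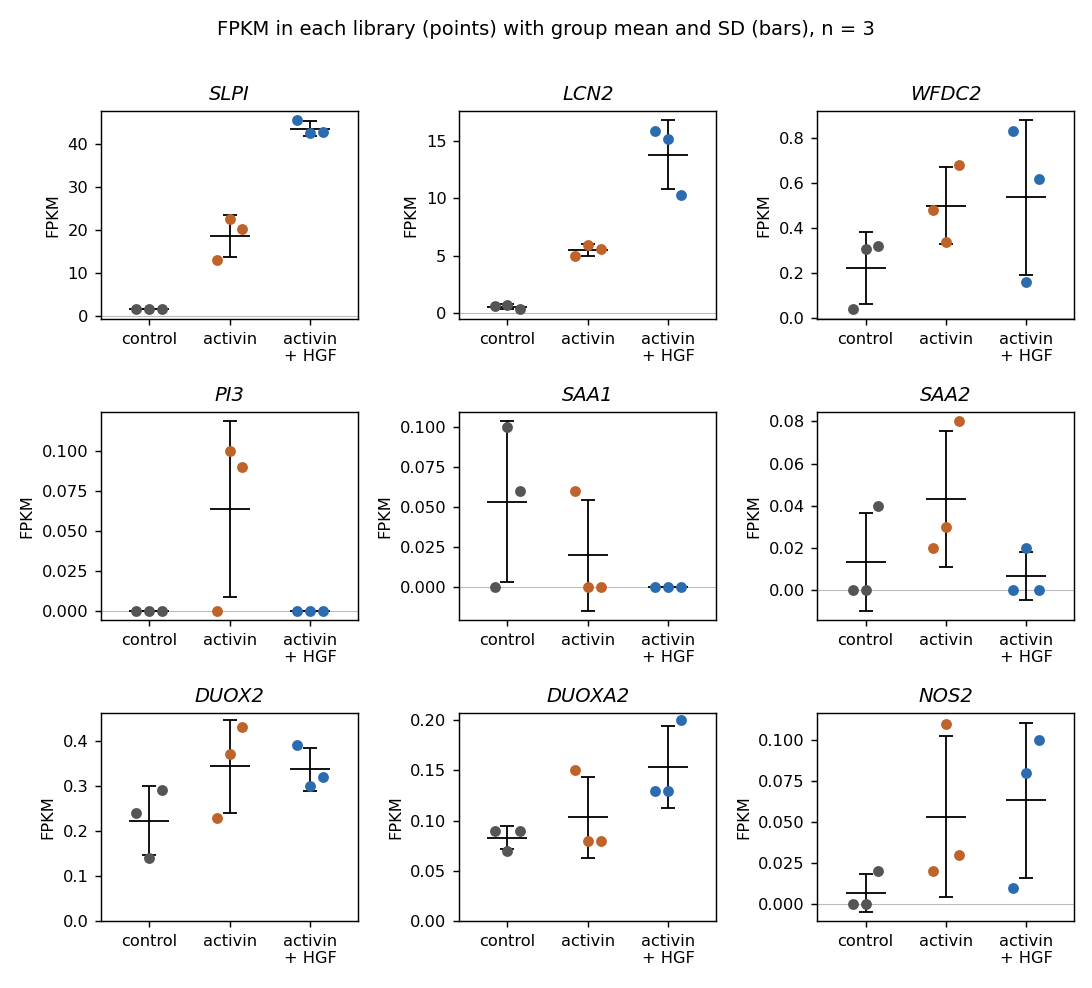
Level in FPKM (y axis, linear, a separate scale for each gene) of the 9 members analysed, by group (x axis). Points are libraries, horizontal bars are group means and error bars are SD (n = 3). SLPI and LCN2 step up at each treatment without overlap, while the other 7 members stay below 1 FPKM and mostly overlap between groups.

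The comparison of activin-treated with control cells asks how these genes respond to the TGF-beta family ligand alone. Differences were tested on the scale of CPM after TMM scaling of library sizes, with edgeR's quasi-likelihood test and Benjamini-Hochberg adjustment over all 20988 genes. A call needed an adjusted p under 0.05 and a log2 fold change of 1 or more in size. With activin, 2 of 6 tested members were called higher and 0 lower, where 6.78% of all tested genes were called higher, 4.62% lower and 11.4% in either direction. SLPI rose 11.4-fold, from 1.04 ± 0.0427 to 11.9 ± 4 CPM (log2 fold change 3.52, SE 0.282, edgeR adjusted p = 4.67e-05), and 1.49% of tested genes had a larger log2 fold change. LCN2 rose 9.6-fold, from 0.97 ± 0.385 to 9.29 ± 1.63 CPM (log2 fold change 3.26, SE 0.354, edgeR adjusted p = 0.000288), with a larger value in 1.69% of genes. The median log2 fold change of the 6 members was 1.95, beside 0.021 over all tested genes. This median includes NOS2, which passed the filter on low counts through its treated libraries. With only control and activin libraries in the fit, NOS2 was not tested, so the median carries no weight as a result. No tested member had a value below 0 in any of the 3 comparisons with this scaling, and none was called lower by DESeq2. The comparisons share libraries, and some signs of uncalled members changed in other fits, so these signs carry no weight either. PI3, SAA1 and SAA2 were not tested.

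After HGF was added, SLPI and LCN2 were again the 2 of 6 tested members called higher, with 0 called lower, where 3.87% of all tested genes were called higher, 4.21% lower and 8.09% in either direction. SLPI rose a further 3.02-fold to 35.9 ± 4.89 CPM (log2 fold change 1.60, SE 0.256, edgeR adjusted p = 0.0067). LCN2 rose a further 3.29-fold to 30.5 ± 8.51 CPM (log2 fold change 1.72, SE 0.326, edgeR adjusted p = 0.0114). Larger log2 fold changes at this step were found for 4.07% of genes in the case of SLPI and for 3.48% in the case of LCN2. The call of LCN2 was lost in 2 fits with a library left out, where its adjusted p was 0.0619 without activin replicate 1 (log2 fold change 1.54) and 0.0501 without activin replicate 3 (1.62), whereas SLPI was called in each fit that left out a library. The scaling also bears on this step. With library totals in place of TMM, the log2 fold changes were 1.26 for SLPI and 1.37 for LCN2, both still called, while the median of all tested genes moved from -0.04 to -0.383.

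Against control cells, the sequential treatment left 2 of 6 tested members called higher and 0 lower, beside 11.3% of all tested genes called higher, 10.2% lower and 21.5% in either direction. SLPI was 34.6-fold higher (log2 fold change 5.11, SE 0.301, edgeR adjusted p = 6.41e-06). LCN2 was 31.6-fold higher (log2 fold change 4.98, SE 0.38, edgeR adjusted p = 2.65e-05). A larger log2 fold change was found in 0.762% of tested genes for SLPI and in 0.815% for LCN2. The 3 comparisons share libraries, so their values for a gene are not independent of each other. The median over the 6 members was 0.73 at the HGF step and 2.46 against control, beside -0.04 and -0.035 over all tested genes. The value against control again includes NOS2, which was not tested with only control and activin + HGF libraries in the fit.

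**Figure D2:**
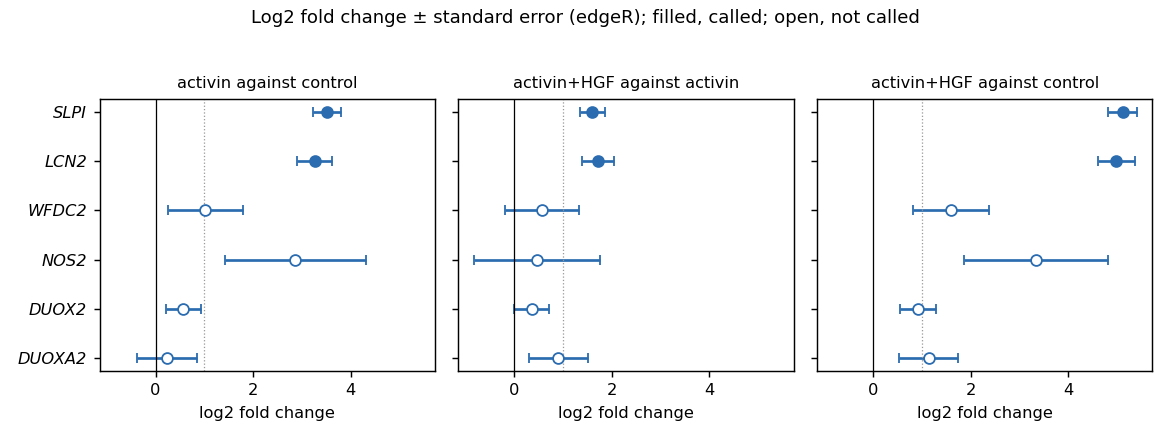
Log2 fold change (x axis) of the 6 tested members (y axis) in the 3 comparisons, from edgeR, with bars of 1 standard error. Filled points were called and open points were not, and the dotted line marks a log2 fold change of 1. SLPI and LCN2 stand at 3.52 and 3.26 with activin and at 5.11 and 4.98 after activin + HGF, and the bars of NOS2 and WFDC2 are wide.

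WFDC2, a further WAP protein of epithelial secretions (chr20:45469753-45481532, plus strand), was low and scattered. It was at 0.04, 0.31 and 0.32 FPKM in control, 0.48, 0.34 and 0.68 in activin and 0.83, 0.16 and 0.62 in activin + HGF libraries. Activin libraries lay above all control libraries, and the activin + HGF libraries overlapped both. Of all tested genes, 42.2% showed a lack of overlap between activin and control libraries, in either direction. The log2 fold changes were 1.02 (SE 0.775, edgeR adjusted p = 0.419) with activin and 1.59 (SE 0.783, edgeR adjusted p = 0.15) against control after activin + HGF, so neither passed. PI3, which encodes elafin (chr20:45174902-45176544, plus strand), had counts of 0, 5 and 4 in the activin libraries and 0 in each of the other 6, which allows up to 0.0551 CPM there. It was not tested.

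SLPI, PI3 and WFDC2 lie on chromosome 20 within the WAP gene cluster. From the start of PI3 to the end of WFDC2, over 306631 bases, lie 9 other tested genes, of which 2 (SDC4 and MATN4) were called higher with activin and none at the HGF step. Over all tested genes, 6.78% and 3.87% were called higher at these steps. SDC4, a cell-surface heparan sulfate proteoglycan within 100000 bases of SLPI, had log2 fold changes of 3.26 with activin (edgeR adjusted p = 0.00014), -0.15 at the HGF step (edgeR adjusted p = 0.769) and 3.12 against control after both (edgeR adjusted p = 8.63e-05). MATN4, a matrix protein, had 2.26 (edgeR adjusted p = 0.0393), -0.20 (0.869) and 2.06 (0.0365) in the same order. Of 15 other genes with WAP domains, 10 were analysed and 3 passed the filter. WFIKKN1, a secreted multidomain protease inhibitor, was the only call of edgeR among these 3, in activin + HGF-treated against control cells (log2 fold change 2.95, SE 0.604, edgeR adjusted p = 0.00471). Its mean was 0.209 CPM in control and 1.62 CPM in activin + HGF-treated cells. Over all tested genes, 11.3% were called higher in that comparison. DESeq2 called 0 of the 3 with activin, 1 higher at the HGF step and 2 higher against control after both.

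The acute-phase genes were near the floor. SAA1 (chr11:18266260-18269977, plus strand) had counts of 0, 6 and 4 in control, 4, 0 and 0 in activin and 0 in each activin + HGF library. SAA2 (chr11:18239223-18248643, minus strand) had counts of 0, 0 and 8 in control, 4, 6 and 14 in activin and 0, 4 and 0 in activin + HGF libraries. Each stayed at or below 0.1 FPKM and neither was tested, also after their counts were summed. The pair is nearly identical in parts, with 46.6% of the 50-base words of SAA1 transcripts also present in SAA2 transcripts, so the split of reads between them is uncertain.

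DUOX2 (chr15:45092650-45114172, minus strand) was at 0.24, 0.14 and 0.29 FPKM in control, 0.23, 0.37 and 0.43 in activin and 0.39, 0.3 and 0.32 in activin + HGF libraries. Control and activin libraries overlapped, and activin + HGF libraries lay just above all control libraries. Its log2 fold changes were 0.57 (SE 0.366, edgeR adjusted p = 0.329) with activin, 0.35 (SE 0.364, 0.56) at the HGF step and 0.92 (SE 0.368, 0.0802) against control after both. DUOXA2 (chr15:45114326-45118421, plus strand) was at 0.09, 0.07 and 0.09 FPKM in control, 0.15, 0.08 and 0.08 in activin and 0.13, 0.13 and 0.2 in activin + HGF libraries. Its log2 fold changes were 0.23 (SE 0.607, edgeR adjusted p = 0.843), 0.90 (SE 0.605, 0.353) and 1.13 (SE 0.609, 0.185) in the same order. In CPM, the activin + HGF libraries of DUOXA2 lay above both other groups. The groups did not overlap, in either direction, for 32.7% of tested genes at the HGF step and 53.8% against control. The ends of this gene pair are 153 bases apart in the deposited table. Over all their GENCODE transcripts, however, exons of the 2 genes share 24 bases on opposite strands, and the sources do not say whether counting used strand.

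DUOX1 and DUOXA1 are the paralogous pair. DUOX1, the other dual oxidase, was at 1.59, 1.53 and 1.63 FPKM in control, 1.47, 1.35 and 1.16 in activin and 0.58, 0.63 and 0.4 in activin + HGF libraries. It fell in activin + HGF-treated against control cells (log2 fold change -1.25, SE 0.237, edgeR adjusted p = 0.00323), with a value of -0.92 at the HGF step (0.0318) that lay under the fold threshold. In control cells DUOX1 lay above DUOX2 in every library on the FPKM scale, and after activin + HGF its lowest library, at 0.4 FPKM, was close to the highest DUOX2 library at 0.39. The difference between the responses of DUOX1 and DUOX2 was not tested. DUOXA1, the partner of DUOX1, had log2 fold changes of 1.25 (edgeR adjusted p = 0.0686), -1.39 (0.0576) and -0.14 (0.832).

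Of 15 genes of the NADPH oxidase family outside the members, 14 were analysed and 12 tested. With activin 1 of them was called higher and 0 lower, at the HGF step 0 either way, and after both against control 1 higher and 2 lower. Among all tested genes, 6.78% were called higher and 4.62% lower with activin, and 3.87% higher and 4.21% lower at the HGF step. Against control after both, 11.3% were called higher and 10.2% lower. These counts are thus near the shares over all genes. At an unadjusted p under 0.05, 0 were lower with activin, and 3 were higher and 4 lower at the HGF step. DESeq2 called 0 lower with activin, and 0 higher and 2 lower at the HGF step. NOXA1, which activates NOX1, rose 3.08-fold with activin (edgeR adjusted p = 0.00103). RAC2 rose and CYBB, the phagocyte oxidase subunit, fell in activin + HGF-treated against control cells (log2 fold changes 1.09 and -1.51, edgeR adjusted p = 0.00141 and 0.0375). Leaving out any of control replicates 1, 2 and 3 brought the adjusted p of CYBB to 0.0998, 0.0822 and 0.0851, and leaving out activin + HGF replicate 2 or 3 brought it to 0.0896 and 0.0653. RAC2 dropped under the fold threshold with library totals (0.82) and without activin + HGF replicate 2 (0.99). CYBA (p22phox), the common partner of NOX proteins, was at 25.4 ± 2.86, 29.9 ± 4.96 and 39.6 ± 5.66 FPKM (SD, n = 3) and was not called. Of 6 heme peroxidases, 4 were tested and 0 were called by edgeR in any comparison. At an unadjusted p under 0.05 there were 0 with activin, 2 at the HGF step and 1 against control after both, and DESeq2 called 1, lower at the HGF step.

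NOS2 (chr17:27756766-27800529, minus strand) had counts of 0, 0 and 8 in control, 6, 35 and 12 in activin and 4, 32 and 36 in activin + HGF libraries. Its highest level was 0.11 FPKM. Replicates differed 6.88-fold in CPM within the activin group and 7.64-fold within the activin + HGF group, 2 control libraries were at 0, and the groups overlapped. The log2 fold changes of 2.87 (SE 1.45, edgeR adjusted p = 0.21) with activin and 3.33 (SE 1.47, edgeR adjusted p = 0.11) after activin + HGF did not pass. Without control replicate 3, the remaining control libraries were both at 0, and the value against control after activin + HGF became 7.61 (adjusted p = 0.0353), a size that depends on the prior count of the fit.

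Genes that feed or compete with nitric oxide synthesis were examined as a list of 13. All 12 that were analysed were tested, with 3 called higher and 1 lower with activin, 0 either way at the HGF step, and 4 higher and 1 lower after activin + HGF against control. Beside these stand 6.78% of all tested genes called higher and 4.62% lower with activin. The shares were 3.87% and 4.21% at the HGF step and 11.3% and 10.2% against control. At the HGF step 3 had an unadjusted p under 0.05 and DESeq2 also called 0. ARG2, the arginase that consumes the same substrate, rose 4.44-fold with activin and was 4.02-fold higher after both (edgeR adjusted p = 0.00011 and 8.31e-05). GCH1, the entry enzyme of tetrahydrobiopterin synthesis, rose 2.82-fold and 3.83-fold (edgeR adjusted p = 0.00962 and 0.00161), at 4.66 ± 2.07, 14 ± 3.28 and 14.5 ± 2.46 FPKM (SD, n = 3). SPR, the last enzyme of that synthesis, fell with activin (log2 fold change -1.50, edgeR adjusted p = 0.00156). The arginine carrier SLC7A1 rose 2.58-fold with activin (edgeR adjusted p = 0.00165). After activin + HGF, ASS1, which regenerates arginine, was 2.26-fold higher than in control cells (edgeR adjusted p = 0.00113), though under the fold threshold with library totals (log2 fold change 0.91). The carrier SLC7A2 was then lower than in control cells (log2 fold change -1.76, edgeR adjusted p = 0.0291). That call was lost without control replicate 1 (0.0972) or 3 (0.0961) and without activin + HGF replicate 1 (0.0832) or 2 (0.0952). SLC7A1 after both was 2.09-fold above control (edgeR adjusted p = 0.00335), and its log2 fold change dropped under 1 with library totals (0.81) and without control replicate 1 (0.97) or activin + HGF replicate 2 (0.95).

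Among 33 other antimicrobial proteins, 14 were analysed and 5 passed the filter, of which 1 was called higher with activin, 2 at the HGF step and 3 after both against control, and 0 lower, also by DESeq2 or at an unadjusted p under 0.05. The shares called higher over all tested genes were 6.78%, 3.87% and 11.3%. LYZ (lysozyme) rose 6.68-fold with activin, from 0.205 to 1.38 CPM (edgeR adjusted p = 0.0134), a call lost without control replicate 2 (adjusted p = 0.0541). Its call after both against control (0.801 CPM, 3.86-fold, edgeR adjusted p = 0.0349) was lost in 6 of 10 other fits, at 0.0729, 0.119 and 0.0844 without control replicates 1, 2 and 3 and at 0.131 without activin + HGF replicate 1. RNASE4 and ANG (angiogenin), secreted ribonucleases, rose 2.46-fold and 2.42-fold at the HGF step (edgeR adjusted p = 0.0261 and 0.0312) and were 3.39-fold and 3.59-fold above control (0.0025 and 0.0024). Their calls at the HGF step were lost in 4 and 6 of 10 other fits, among them that with library totals (adjusted p = 0.0918 and 0.0663). Without activin replicate 1, activin replicate 3 or activin + HGF replicate 1 the adjusted p was 0.0696, 0.0756 and 0.0727 for RNASE4 and 0.0956, 0.128 and 0.0888 for ANG, and for ANG it was 0.0536 without activin + HGF replicate 3. RNASE4 and ANG share 675 exonic bases on the same strand, so their reads cannot be fully separated.

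Of 10 partners of the acute-phase proteins and lipocalins, 7 were analysed and 3 tested. In each comparison 1 was called higher and 0 lower. Over all tested genes, 6.78% were called higher with activin, 3.87% at the HGF step and 11.3% against control after both. SLC22A17, described as a receptor of LCN2, was the only call, with 5.49, 11.1 and 22.9 CPM in control, activin-treated and activin + HGF-treated cells. Its log2 fold changes were 1.02 (SE 0.277, edgeR adjusted p = 0.0289) with activin, 1.04 (SE 0.275, 0.0348) at the HGF step and 2.06 (SE 0.284, 0.000583) against control after both. The calls of the single steps lie next to the fold threshold and were lost in 5 and 6 of 10 other fits, while that against control was lost in 0 of 10. The activin call was lost without any of the 3 control libraries or activin replicates 1 and 2 (log2 fold changes 0.93 to 1.09), and the HGF call without activin replicates 1 and 3 or activin + HGF replicates 1 and 2 (0.71 to 1.08). The HGF call was also lost with library totals (log2 fold change 0.68, edgeR adjusted p = 0.0915). With the replicate block it fell just under the fold threshold (edgeR adjusted p = 0.041).

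Regulators known to induce these genes were examined as a list of 28, of which 27 were analysed and 26 tested. With activin 6 were called higher and 0 lower, at the HGF step 0 higher and 3 lower, and against control after both 5 higher and 3 lower. The shares of all tested genes called higher and lower were 6.78% and 4.62%, 3.87% and 4.21%, and 11.3% and 10.2%, in that order. At an unadjusted p under 0.05, 1 was lower with activin and 2 were higher at the HGF step, and DESeq2 called 0 of these kinds. NFKBIZ, the inducible nuclear IkB protein that LCN2 induction is known to need, was at 0.61, 0.55 and 0.47 FPKM in control, 3.72, 2.99 and 2.29 in activin and 0.9, 0.99 and 0.98 in activin + HGF libraries. It rose 5.19-fold with activin (edgeR adjusted p = 0.000175) and fell at the HGF step (log2 fold change -1.26, SE 0.227, edgeR adjusted p = 0.00936). IRF1, an interferon-responsive factor, likewise rose 3.42-fold (edgeR adjusted p = 0.00446) and then fell (log2 fold change -1.50, SE 0.32, edgeR adjusted p = 0.0163). SLPI and LCN2 thus rose at a step at which NFKBIZ and IRF1 fell, and a link between these courses was not tested. NFKBIZ stayed above control after both treatments, with means of 3.61, 18.7 and 7.8 CPM in the 3 groups. It was still called against control, a call lost in 1 of 10 other fits, that with library totals (log2 fold change 0.84). IRF1 had means of 16.9, 57.9 and 20.5 CPM.

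The other factors that rose with activin were not called at the HGF step. RELB and NFKB2, of the noncanonical NF-kappaB pathway, rose 6.65-fold and 3.61-fold with activin (edgeR adjusted p = 4.2e-05 and 0.00027) and were 6.59-fold and 3.32-fold above control after both (3.16e-05 and 0.00021). CEBPB and CEBPD rose 5.85-fold and 5.94-fold with activin (edgeR adjusted p = 0.000315 and 0.00094) and were 8.97-fold and 4.49-fold above control after both (6.21e-05 and 0.00121). CEBPB was at 9.54, 13.73 and 12.85 FPKM in control, 66.44, 87.3 and 67.35 in activin and 53.51, 102.16 and 113.56 in activin + HGF libraries, with the last 2 groups overlapping. NFKB1, the receptor TLR3 and the adaptor MYD88 were lower after activin + HGF than in control cells (log2 fold changes -1.22, -3.52 and -1.80, edgeR adjusted p = 0.0062, 0.0111 and 0.00512), NFKB1 passing under the fold threshold without activin + HGF replicate 1 (-0.94). TLR3 also fell at the HGF step (log2 fold change -3.05, edgeR adjusted p = 0.0407), a call lost without activin replicate 1, 2 or 3 or activin + HGF replicate 2 (adjusted p = 0.0532 to 0.11).

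**Figure D3:**
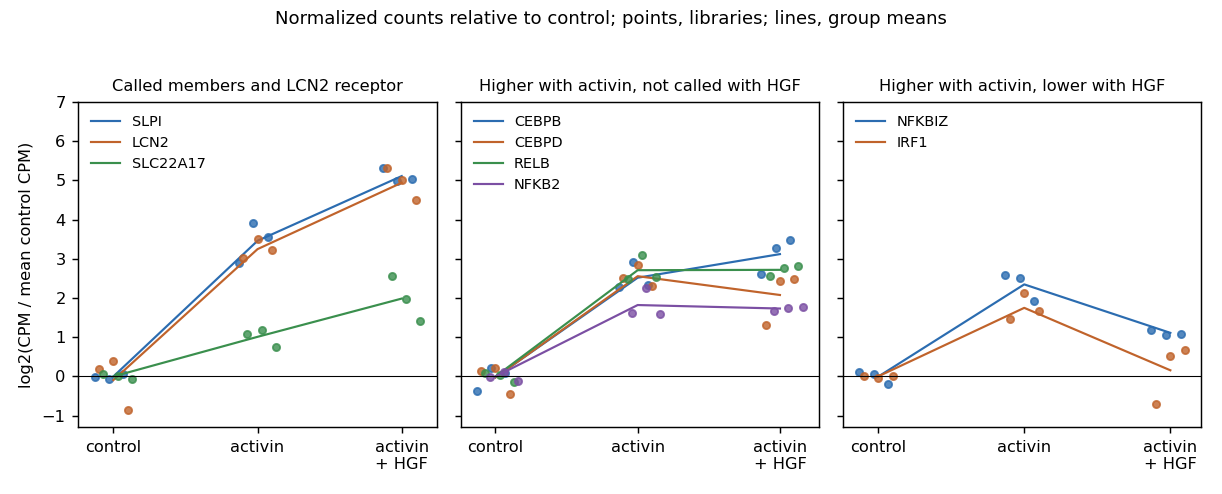
Log2 of CPM over the mean control CPM (y axis) by group (x axis) for SLPI, LCN2 and SLC22A17 (left), 4 regulators called higher with activin and not called at the HGF step (middle) and 2 that fell at the HGF step (right). Points are libraries and lines join group means. SLPI and LCN2 climb at both steps, while NFKBIZ and IRF1 turn down after HGF.

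The genes most like SLPI and LCN2 in their course were sought by Pearson's r of log2 CPM over the 9 libraries among 14756 genes with a mean of at least 1 CPM. Since the 9 libraries fall into 3 groups, r mainly follows the group means and is given as a description. For SLPI the 3 most alike were SNHG32 (r = 0.9971), IER3 (0.9944) and ITPKA (0.9938). For LCN2 they were INAFM1 (0.993), BAIAP2L1 (0.991) and KMT5C (0.991). SLPI and LCN2 had r = 0.983 with each other, which placed SLPI at rank 29 for LCN2 and LCN2 at rank 59 for SLPI. SNHG32, a host transcript of small nucleolar RNAs, had means of 67.2, 308 and 649 CPM in the 3 groups.

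In the order of levels on the FPKM scale, SLPI and LCN2 came first and second in each group by mean, and their libraries did not overlap each other. In control cells the lowest LCN2 library, at 0.29 FPKM, lay within the range of WFDC2 and DUOX2. In activin-treated cells WFDC2 (0.5 ± 0.171) and DUOX2 (0.343 ± 0.103) followed and overlapped each other, and in activin + HGF-treated cells WFDC2 (0.537 ± 0.343) and DUOX2 (0.337 ± 0.0473) overlapped as well. In control cells these 2 had the same mean of 0.223 FPKM. DUOXA2 stood below DUOX2 in each group, at 0.0833 ± 0.0115, 0.103 ± 0.0404 and 0.153 ± 0.0404 FPKM (SD, n = 3). NOS2, PI3, SAA1 and SAA2 made up the lowest ranks and could not be ordered, since each of them was at 0 in some library.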

How the data were processed

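RNA was depleted of ribosomal RNA and sequenced from 9 libraries. The authors deposited read counts per gene, not normalized, and FPKM, which the authors scaled to depth and gene length. The submitters' processing notes name cutadapt 1.9, HISAT2 2.0.4 and StringTie 1.3.4d. The build is not given in the sources used here. Of 33861 gene IDs, 32930 were found in GENCODE release 29 (GRCh38), all at overlapping positions. Counts were tested with edgeR 4.0.16 (filterByExpr, TMM, glmQLFit, glmQLFTest) in R 4.3.3, with group means over all 9 libraries and no block. DESeq2 1.42.0 and limma 3.58.1 served as alternatives. The test was checked on simulated counts. Groups came from the labels. TMM factors were 0.783 to 1.17, and 15.1 to 20.1% of counts were mitochondrial.

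The members, lists, motifs and tests were chosen with earlier results of these data known. From the lists, genes could be named if called in a comparison, if highest in mean FPKM or if a direct partner of a member, and the 3 genes most correlated with each called member were named. SDC4 and MATN4 were named because they were the called genes between PI3 and WFDC2, and PDGFRB was named after its values were seen. A gene of the NADPH oxidase list is not reported here. Promoters came from RefSeq. Other fits of list genes numbered 10, those of library totals, a replicate block, counts divided by 4 or 1 library left out being among them.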

Additional observations from a re-analysis of the deposited data

How the results depend on the processing

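SLPI kept its call and direction in all 3 comparisons under each alternative, with log2 fold changes of 2.91 to 3.78 with activin, 1.22 to 1.85 at the HGF step and 4.13 to 5.18 against control. LCN2 kept its direction throughout. The number of members called stayed at 2 with activin, and against control it was 2 except without control replicate 3, where NOS2 made it 3. At the HGF step it was 1 (SLPI) at an adjusted p under 0.01, and 1 to 2 with a library left out, 1 without activin replicate 1 or 3. The causes were not tested. The 5 values that changed sign were all of uncalled members and close to 0. At the HGF step these were -0.0015 for DUOX2 with library totals, -0.06 for WFDC2 by limma on log2(FPKM + 0.1), -0.0033 for WFDC2 without activin + HGF replicate 1 and -0.02 for NOS2 without activin replicate 1. With activin it was -0.03 for DUOXA2 without activin replicate 1. With a library left out, DUOXA2 with activin ranged from -0.03 to 0.43, NOS2 at the HGF step from -0.02 to 1.60 and WFDC2 at the HGF step from -0.0033 to 1.00. With the replicate block, 2 members were called in each comparison. Nothing in the labels pairs libraries of equal replicate number. Their deviations from group means correlated at -0.0844 to 0.147 over 9 pairs. This cannot exclude a pairing, because libraries of unequal number were not compared.

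Over all genes, the 1697 calls at the HGF step became 677 with only the groups compared, 452 at an adjusted p under 0.01, 699 by limma on log2(FPKM + 1), 606 without activin replicate 1, 866 without activin replicate 3, 1079 without activin + HGF replicate 1 and 2698 with no fold threshold. The 2394 calls with activin became 1421 at an adjusted p under 0.01, 1199 by limma on log2(FPKM + 1) and 3776 with no fold threshold. The 4519 against control became 2973 at an adjusted p under 0.01 and 2238 by that limma fit. With library totals, the share of calls that were higher moved from 59.5 to 68.7%, from 47.9 to 15% and from 52.6 to 33.4% in the 3 comparisons. NOS2, PI3, SAA1 and SAA2 had at most 36 counts in a library, which limits what could be detected for them.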

Other observations

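Among counts of 1 to 40 in the deposited table, 35% were multiples of 4, where an even spread gives 25%. Among the 30 such counts of the members, 14 (46.7%) were. When all counts were divided by 4 and rounded, an alternative chosen after seeing the data, SLPI and LCN2 were the members called.

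Within 100000 bases of LCN2, 8 other genes were tested. After activin + HGF against control SLC25A25 and C9orf16 were called higher (log2 fold changes 1.80 and 1.94, edgeR adjusted p = 0.000947 and 0.000503) and SLC25A25-AS1 lower (-1.27, 0.0038). Over all tested genes, 11.3% were called higher and 10.2% lower in that comparison. With activin only SLC25A25 was called, and at the HGF step only C9orf16, both higher. The shares called higher over all tested genes were 6.78% and 3.87% at these steps. SLC25A25-AS1 is antisense to SLC25A25, and the sources do not say whether counting used strand.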
